A study of Mus musculus with 123 samples.

Results

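The 9 genes described here encode liver enzymes that break down amino acids. They were chosen by symbol from a table of 15398 genes, and all 9 were found and tested among 14397 genes. Tat, Hpd, Hgd and Fah act on tyrosine, Tdo2 and Kmo on tryptophan, Sds on serine, and Got1 and Gpt move amino groups between amino acids and keto acids. Liver RNA was measured in mice on HFD or LFD, the labels' names for a high-fat and a low-fat diet, in Equal light, Long light or Short light, at zeitgeber times (ZT) 0, 4, 8, 12, 16 and 20 h. The 2 diets, 3 photoperiods and 6 times make 36 groups, 21 of 3 libraries and 15 of 4, with 61 HFD and 62 LFD libraries. A diet and a photoperiod together are called an arm, and the 6 arms held 20 or 21 libraries each. Strain, sex, age, diet composition, hours of light and the event that sets ZT0 are not stated in the labels. No animals are named, so the spread behind every p-value is that between libraries and may be technical.

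The liver takes up most dietary amino acids beyond those needed for protein and oxidises their carbon skeletons, while their nitrogen passes through glutamate and aspartate into the urea cycle. Tyrosine breakdown starts with tyrosine aminotransferase (Tat) and ends in fumarate and acetoacetate. Tryptophan breakdown starts with tryptophan 2,3-dioxygenase (Tdo2) and runs through kynurenine towards NAD or complete oxidation. Tat and Tdo2 are classical targets of glucocorticoids, and Sds is known to follow glucagon, fasting and protein intake.

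The genes were all strongly expressed. The values are log2 CPM, in name the log2 of a gene's reads per mega-read (M) of its library. The CPM of a library summed to between 0.818 M and 1.106 M, so the scaling was not by the plain sum of its reads. The library with the fewest recovered reads held 13.97 M reads, the median 24.06 M and the largest 39.09 M. Per kilobase of exon, the median level was 824 CPM for Hpd, 701 CPM for Tat, 332 CPM for Tdo2, 296 CPM for Hgd, 283 CPM for Fah, 112.8 CPM for Got1, 88.4 CPM for Gpt, 88.3 CPM for Sds and 78.98 CPM for Kmo. Of the steps in this order, the fall from Fah to Got1 held in every library, whereas that from Hpd to Tat held in 90. Gpt exceeded Sds in 55 libraries, Hgd exceeded Fah in 74 and Sds exceeded Kmo in 76, so that these neighbours were not separated by level. Across the 36 group means, Sds had the widest range of the 9, 2.0 on the log2 scale, and Hgd, Fah and Kmo the narrowest, at 0.55, 0.55 and 0.57.

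Other tissue was present in part of the libraries. The summed level of 7 hepatocyte markers was 70360 to 128200 CPM in HFD and 88540 to 150700 CPM in LFD libraries. The summed level of 12 skeletal muscle markers ran from 0.607 to 999.7 CPM in HFD and from 0.685 to 1166 CPM in LFD libraries, and that of 13 pancreas acinar markers from 17.7 to 606.3 CPM and from 12.3 to 4106 CPM. Of the pancreas markers Cela1 had a mean log2 CPM of 5.22 and the others at most 0.32, so that low sums were largely Cela1. In 17 libraries, 5 HFD and 12 LFD, the mean level of muscle or pancreas markers was above a log2 CPM of 4. The libraries numbered here as HFD Equal light ZT20 replicate 1 and LFD Equal light ZT0 replicate 3 lay farthest from their groups. Results that rest on either are given with and without it.

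Tdo2, which acts on tryptophan, and Kmo, which acts on kynurenine further along the path, were both higher in HFD liver. Their promoters are shown because the pair moved together with diet. Each is the 250 bases before the RefSeq start of the gene, on GRCm38.p6, with Tdo2 at chr3:81975729-81975978 on the minus strand and Kmo at chr1:175631943-175632192 on the plus strand; capitals mark a match to AGGTCA or its complement; the Kmo window holds none. Both RefSeq starts lie inside the wider GENCODE extents given further on.

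Tdo2: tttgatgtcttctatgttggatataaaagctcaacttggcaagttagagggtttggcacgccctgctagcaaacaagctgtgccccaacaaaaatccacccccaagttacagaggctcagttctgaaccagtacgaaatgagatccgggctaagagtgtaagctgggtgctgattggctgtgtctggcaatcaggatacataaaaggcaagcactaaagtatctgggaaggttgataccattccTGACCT
Kmo: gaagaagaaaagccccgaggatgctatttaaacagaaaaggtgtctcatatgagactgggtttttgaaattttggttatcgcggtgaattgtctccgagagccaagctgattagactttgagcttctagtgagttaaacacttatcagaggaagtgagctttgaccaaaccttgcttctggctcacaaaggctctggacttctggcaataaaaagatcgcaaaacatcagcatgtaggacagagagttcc

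RefSeq promoters were matched for 7 of the 9 genes. They were searched on both strands for AGGTCA (nuclear receptors), CACGTG (E-box), TTATGTAA and TTACGTAA (D-box), TGACGTCA (CRE), TGTTCT (glucocorticoid receptor), TTGCGCAA (C/EBP) and TGTTTAC (FOX). No motif contains another. Matches were found to AGGTCA alone, starting at base -6 in Tdo2, -84 in Hgd and -244 in Got1. Windows of this length held AGGTCA in 14% of 32851 promoters, TGTTCT in 16.1% and CACGTG in 6.02%. A match is a description of the letters and not a binding site.

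Between HFD and LFD, 4 of the 9 genes passed the test and all 4 were higher in HFD: Tdo2, Kmo, Hpd and Gpt. The test was limma with a trend of variance on expression, 1 mean per group, and Benjamini-Hochberg adjustment over all genes at 0.05. By the same test 25.5% of all genes were called and 12.9% were called higher in HFD. The median difference of the 9 genes was 0.060 on the log2 scale, against -0.0038 over all genes. In bulk liver, fewer cells of a type and less RNA per cell cannot be told apart.

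Tdo2 (chromosome 3, 81957090 to 81976202, minus strand, GRCm38) ran from 9.89 to 11.35 log2 CPM in the 61 HFD libraries with a median of 10.47. In the 62 LFD libraries it ran from 9.52 to 10.75 with a median of 10.18. Single libraries of both diets overlapped, but the HFD mean was higher in 18 of 18 matched pairs of photoperiod and time. The log2 difference was 0.33 (SE 0.046, 1.26-fold, limma adjusted p = 2.02e-08). Kmo (chromosome 1, 175620381 to 175662116, plus strand), kynurenine 3-monooxygenase, ran from 8.22 to 9.02 log2 CPM with a median of 8.62 on HFD and from 7.92 to 8.84 with a median of 8.47 on LFD. Its difference was 0.18 (SE 0.028, 1.14-fold, limma adjusted p = 2.96e-07), and it was higher on HFD in 17 of 18 matched pairs.

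**Figure D1:**
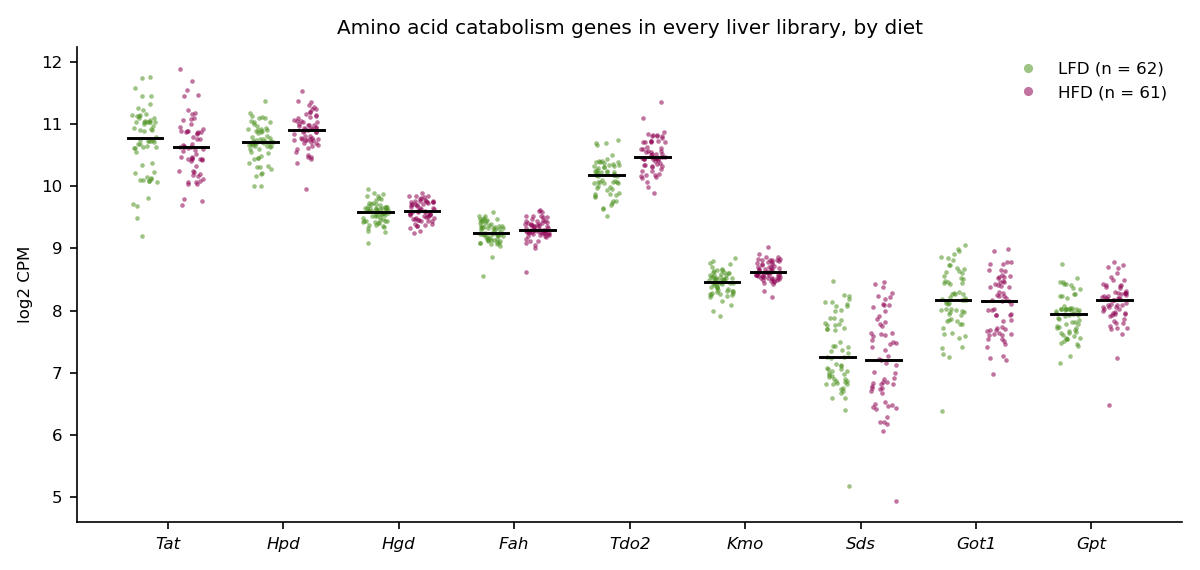
Level of the 9 genes in each library, as log2 CPM on the vertical axis, with LFD on the left and HFD on the right of each gene; black lines are medians. The HFD and LFD points overlap for all 9 genes, and the HFD median lies above the LFD median by the widest margin in Tdo2 (10.47 against 10.18).

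Hpd (chromosome 5, 123171807 to 123182727, minus strand), 4-hydroxyphenylpyruvate dioxygenase, is the step after Tat. It had a median of 10.91 log2 CPM on HFD, with a range of 9.96 to 11.54, and of 10.71 on LFD, with a range of 10.0001 to 11.38. Its difference was 0.20 (SE 0.048, 1.15-fold, limma adjusted p = 0.000944), with HFD higher in 17 of 18 matched pairs. Gpt (chromosome 15, 76695716 to 76699686, plus strand), alanine aminotransferase, had a median of 8.18 log2 CPM on HFD, with a range of 6.49 to 8.79, and of 7.94 on LFD, with a range of 7.16 to 8.74. It differed by 0.21 (SE 0.054, 1.16-fold, limma adjusted p = 0.0017) and was higher on HFD in 18 of 18 matched pairs. The 4 differences kept their calls in all 18 alternative settings, where the highest adjusted p was 0.000554 for Tdo2, 0.000898 for Kmo, 0.0495 for Hpd and 0.0448 for Gpt.

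The other tyrosine genes among the 9, Tat, Hgd and Fah, did not pass the test. Fah (chromosome 7, 84585159 to 84606722, minus strand), fumarylacetoacetase, the last step, differed by 0.060 (95% interval 0.0071 to 0.11, limma adjusted p = 0.0872). It gained a call in 4 of 18 alternatives, among them the one without the HFD Equal light ZT20 library, where the difference was 0.070 (limma adjusted p = 0.0221). Hgd (chromosome 16, 37580153 to 37632020, plus strand), homogentisate dioxygenase, differed by 0.027 (95% interval -0.022 to 0.076, limma adjusted p = 0.454). Tat (chromosome 8, 109990437 to 109999803, plus strand) differed by -0.064 (95% interval -0.23 to 0.098, limma adjusted p = 0.618) and was higher on HFD in 6 of 18 matched pairs. Its single values spanned 9.69 to 11.90 log2 CPM on HFD and 9.21 to 11.76 on LFD, the widest spread within groups after Sds (SD 0.45 for both).

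Sds (chromosome 5, 120476526 to 120483932, plus strand), serine dehydratase, and Got1 (chromosome 19, 43499752 to 43524605, minus strand), the cytosolic aspartate aminotransferase, did not pass either. Sds differed by -0.13 (95% interval -0.29 to 0.033, limma adjusted p = 0.254) and Got1 by -0.090 (95% interval -0.23 to 0.055, limma adjusted p = 0.392). Each was higher on HFD in 7 of 18 matched pairs. Sds shares 360 exonic bases with Plbd2 and 141 with the antisense gene Gm15690, both on the other strand. The library kit keeps strand, but the strand setting of the counting is not stated, so that reads of these genes may not be fully separated.

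By photoperiod, Tdo2 was called higher on HFD in Equal light (0.42, SE 0.081, limma adjusted p = 0.000397) and Long light (0.35, SE 0.080, limma adjusted p = 0.00326), and differed by 0.23 in Short light (limma adjusted p = 0.0598). Kmo was called in each photoperiod, at 0.23 in Equal, 0.16 in Long and 0.16 in Short light. No other of the 9 was called, and 6.85%, 4.86% and 6.88% of all genes were called in Equal, Long and Short light. The diet difference itself was not shown to depend on photoperiod. The interaction test gave 0 of 9 genes by limma and by limma-voom, and 0% of all genes by limma. At an unadjusted p under 0.05 it gave 0 of the 9 and 483 of all 14397 genes. Without the 17 libraries rich in other tissue, Kmo fell below the threshold in Long light (0.13, limma adjusted p = 0.354) and Tdo2 stood at 0.34 (limma adjusted p = 0.0509). Leaving out the libraries numbered 1, 2, 3 or 4 of every group, in turn, ended the Kmo call in Long light in 4 of 4 cases and in Short light in 3 of 4. Without those numbered 1, the calls in Equal light of Tdo2 (limma adjusted p = 0.0665) and Kmo (0.065) and that of Tdo2 in Long light (0.207) ended too.

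By time of day, the diet difference of Tdo2 was largest at ZT4 (0.54, SE 0.11, 1.45-fold, limma adjusted p = 0.00258) and also passed at ZT16 (0.42, SE 0.11, limma adjusted p = 0.022). Kmo passed at ZT4 (0.30, SE 0.069, limma adjusted p = 0.00744). The ZT16 call of Tdo2 ended in 4 of 18 alternatives, without replicate 1, 2 or 4 (limma adjusted p = 0.22, 0.143 and 0.107) and without the 17 libraries rich in other tissue (0.0503). At ZT4, leaving out replicate 1 ended the calls of Tdo2 (limma adjusted p = 0.149) and Kmo (0.218), and Kmo also missed the threshold without the 17 libraries (0.0779). All genes called made up 2.36% at ZT4 and 2.5% at ZT16. At ZT4 in Equal light the HFD libraries had 10.78, 11.35, 10.19 and 10.45 log2 CPM of Tdo2 and the LFD libraries 9.84, 10.35 and 10.19, so that both sets overlapped. At ZT4 in Long light the HFD values were 10.61, 10.19 and 10.34 and the LFD values 9.76, 9.52, 9.64 and 10.19. None of the 9 was called at ZT0, ZT8, ZT12 or ZT20 by limma or limma-voom. Of all genes, limma called 0.472%, 0.181%, 0.00695% and 0.597% at these times. An unadjusted p under 0.05 was found for 2, 3, 1 and 0 of the 9. It was found for 1804, 1486, 1143 and 1888 of all 14397 genes. Whether the diet difference follows a cosine of 24 h was tested through the rhythm, described further on. That cosine cannot take up highs at both ZT4 and ZT16, so the cosine alone does not decide on this pattern of Tdo2. The alternative with the times of day as a factor can take up both. The count for a rhythm difference between diets, 0 of the 9 with the cosine, is not among the counts listed further on as moved.

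**Figure D2:**
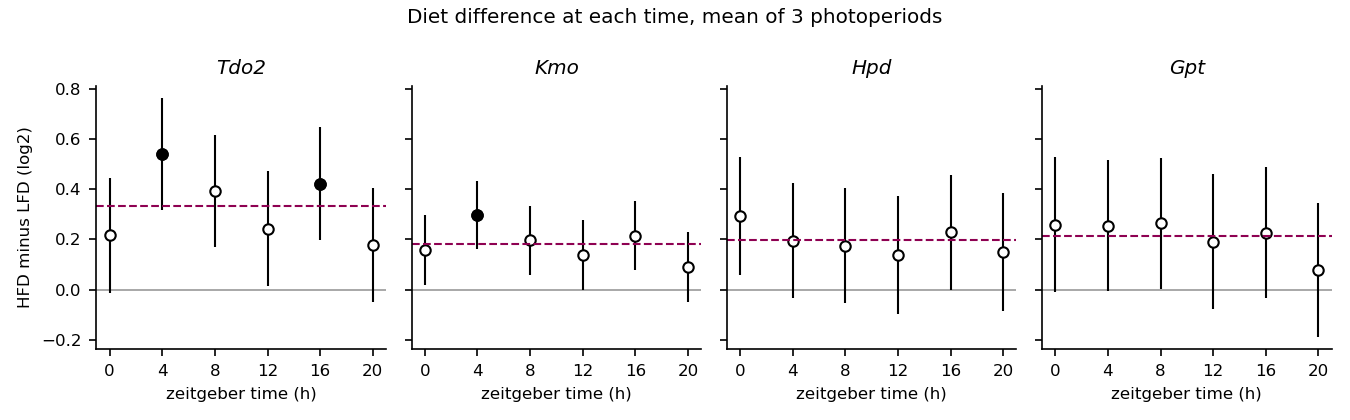
Difference in log2 CPM between HFD and LFD (vertical axis) at each zeitgeber time (horizontal axis, h) for Tdo2, Kmo, Hpd and Gpt, as the mean over 3 photoperiods with 95% intervals; filled points passed the test and dashed lines give the difference over all times. The points lie above 0 at every time for all 4 genes, and Tdo2 at ZT4 is the highest at 0.54.

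No mean level of the 9 genes passed the test between photoperiods. Long and Short light gave 0 calls of 9 by limma and by limma-voom (0% of all genes by limma). At an unadjusted p under 0.05 they gave 4 of the 9 and 402 of all 14397 genes. Long and Equal light gave 0 (0.0278% of all genes), and Short and Equal light gave 0 (0.00695% of all genes). Unadjusted, these gave 2 and 3 of the 9, and 2106 and 2385 of all genes. In each comparison the smallest p among the 9 genes belonged to Got1 in Long against Short light, at -0.33 (SE 0.089, 95% interval -0.51 to -0.16, limma adjusted p = 1), to Hgd in Long against Equal light, at -0.095 (SE 0.030, limma adjusted p = 0.176), and to Hpd in Short against Equal light, at 0.17 (SE 0.058, limma adjusted p = 0.142).

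Sds was the gene of the 9 with the strongest daily cycle. A cosine with a period of 24 h was fitted in each arm, and its amplitude is the log2 distance from mean to peak. Sds passed the rhythm test in all 6 arms, which 4.11% of all genes did, with amplitudes of 0.52 to 1.0. In HFD Equal light its libraries had 8.09, 8.18 and 8.21 log2 CPM at ZT8 and 4.93, 6.20, 6.66 and 6.86 at ZT20. In that arm every ZT8 library exceeded every ZT20 library, and the fitted peak was 4.02-fold above the trough (limma adjusted p = 3.18e-07). The 4.93 belongs to the ZT20 library that stands apart, and the order of ZT8 and ZT20 held with and without it. The fold includes that library. The call was kept in all 18 alternatives, among them the one without it, with amplitudes from 0.866 to 1.099. In LFD Equal light the ZT8 values were 7.87, 8.24 and 8.0 and the ZT20 values 6.40, 6.89 and 6.81, again with no overlap. The Sds call in LFD Long light ended without the 17 libraries rich in other tissue (amplitude 0.49, limma adjusted p = 0.0962), and those in HFD Long and LFD Short light ended without the libraries numbered 3 (limma adjusted p = 0.204 and 0.0904).

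The time of the Sds peak differed between photoperiods. On LFD the peak fell at ZT 7.96 ± 0.77 h (SE) in Equal light, 13 ± 0.81 h in Long light and 4.90 ± 0.90 h in Short light. On HFD it fell at 8.78 ± 0.53 h, 12.6 ± 1.03 h and 4.62 ± 0.69 h in the same order. Long light was therefore later than Equal light by 5.06 ± 1.12 h (SE) on LFD and 3.84 ± 1.16 h on HFD, and Short light was earlier, at -3.06 ± 1.18 h and -4.16 ± 0.87 h. At ZT0 of the LFD arms, the Short light libraries had 7.35, 7.85 and 7.88 log2 CPM and the Long light libraries 6.94, 5.18 and 6.59, with no overlap. At ZT16 the LFD order was the other way in the means, 7.04 in Short and 7.58 in Long light, but single libraries overlapped.

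**Figure D3:**
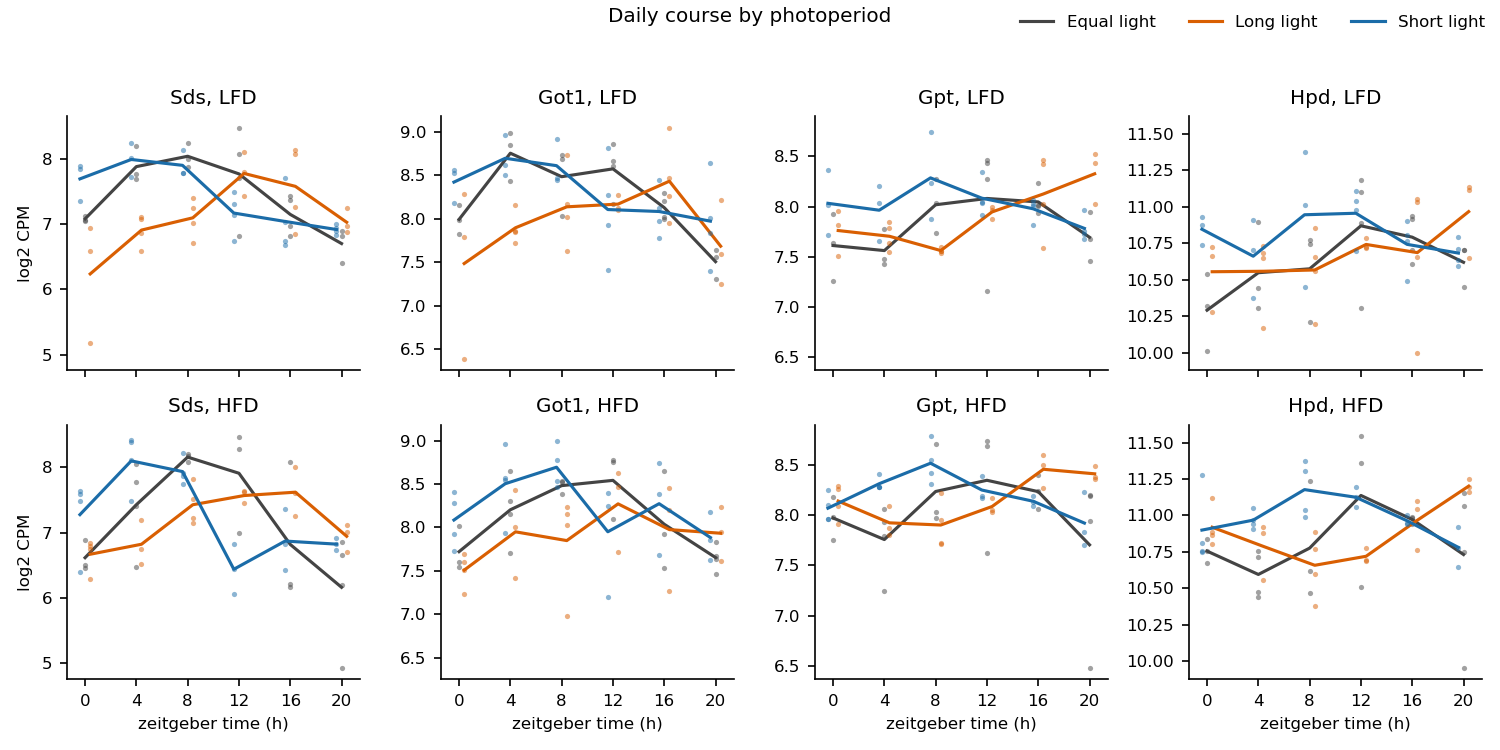
Level of Sds, Got1, Gpt and Hpd (log2 CPM, vertical axis) over zeitgeber time (h, horizontal axis), with LFD above and HFD below; points are libraries, lines join group means, and colours mark the photoperiods. The Sds curve of Short light (blue) is highest at ZT4 on both diets, while that of Long light (orange) is highest at ZT12 on LFD and ZT16 on HFD.

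Got1 passed the rhythm test in 4 arms, all LFD arms and HFD Equal light, with amplitudes of 0.37 to 0.52 there. Its peaks on LFD, at 8.04 ± 0.90 h in Equal, 12.3 ± 1.14 h in Long and 4.95 ± 1.26 h in Short light, lay close to those of Sds. Without the 17 libraries rich in other tissue the Got1 amplitude in LFD Long light went from 0.40 to 0.15 (limma adjusted p = 0.786). The Got1 call in LFD Short light (limma adjusted p = 0.0481) ended in 6 of 18 alternatives, among them leaving out replicates 1, 2, 3 or 4 in turn, limma-voom (adjusted p = 0.0559) and no filter on low values (limma adjusted p = 0.0504). In LFD Long light it ended in 5, and in LFD Equal and HFD Equal light in 1 each, without replicate 3 (limma adjusted p = 0.0964 and 0.164). Gpt passed in 4 arms, Equal and Long light on both diets, with amplitudes of 0.29 to 0.33. Its peaks were later than those of Sds, at 12.6 ± 1.21 h in LFD Equal, 18.1 ± 1.05 h in LFD Long, 11.8 ± 1.09 h in HFD Equal and 18.1 ± 1.14 h in HFD Long light. In HFD Equal light the ZT20 libraries of Gpt had 6.49, 7.94, 8.20 and 8.20 log2 CPM, and without the lowest, the library that stands apart, the amplitude was 0.26 (limma adjusted p = 0.0506). In LFD Equal light the Gpt amplitude was 0.26 without the ZT0 library that stands apart (limma adjusted p = 0.122). The 4 Gpt calls ended in 7 (LFD Equal), 2 (LFD Long), 3 (HFD Equal) and 4 (HFD Long light) of 18 alternatives.

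The tyrosine enzymes passed in fewer arms. Fah passed in LFD Equal light (amplitude 0.17, limma adjusted p = 0.0132) and HFD Equal light (0.15, limma adjusted p = 0.0414). Each call ended without the library of its arm that stands apart, at amplitudes of 0.10 (limma adjusted p = 0.226) and 0.12 (limma adjusted p = 0.122). The HFD Equal light call also ended in settings that kept that library, such as without replicate 2 (limma adjusted p = 0.091) or 3 (0.154). Hpd passed in LFD Equal light alone (0.24, limma adjusted p = 0.0487) and was at 0.20 without the ZT0 library that stands apart (limma adjusted p = 0.185). Hgd passed in LFD Equal light (0.18, limma adjusted p = 0.00711), and Tat in LFD Short light (0.47, peak at 14.1 ± 1.17 h) and HFD Short light (0.51, peak at 8.63 ± 1.08 h), calls that ended in 4 and 5 of 18 alternatives. The Hpd call ended in 7 of 18, those of Fah in 3 (LFD Equal) and 6 (HFD Equal light), and that of Hgd in 2. Tdo2 and Kmo passed in no arm by limma. By arm, 6 of 9 genes were called in LFD Equal light, 3 in LFD Long, 3 in LFD Short, 4 in HFD Equal, 2 in HFD Long and 2 in HFD Short light, beside 20.9%, 23.6%, 27.1%, 16.5%, 21.8% and 14.1% of all genes.

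The rhythm itself was then compared between photoperiods and between diets. Between Long and Short light 7 of 9 genes passed (Tat, Hpd, Fah, Tdo2, Sds, Got1 and Gpt), beside 52.9% of all genes. The size of such a difference is the amplitude of the difference between both fitted cosines, and it was 1.09 for Sds (limma adjusted p = 5.47e-10) and 0.52 for Gpt (limma adjusted p = 3.38e-06). Between Long and Equal light 5 passed (Hpd, Fah, Sds, Got1 and Gpt; 23.8% of all genes), with 0.80 for Sds (limma adjusted p = 2.1e-05). Between Short and Equal light Sds alone passed (0.72, limma adjusted p = 0.000434; 16.3% of all genes). Sds kept its call in all 18 alternatives in each of the 3 comparisons, as Gpt did in its 2. Between Long and Short light Tdo2 lost its call in 4 and Tat in 1. Between Long and Equal light Got1 lost its call in 4 (limma adjusted p up to 0.219), Hpd in 3 (up to 0.279) and Fah in 2 (up to 0.106). Between HFD and LFD 0 of 9 passed, and 0 by limma-voom, beside 0.00695% of all genes. An unadjusted p under 0.05 was found there for 0 of the 9 and for 400 of all 14397 genes. The test of rhythm by diet and photoperiod gave 0 of the 9 (0% of all genes).

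The clock output gene Dbp, a transcription factor driven directly by the core clock, gives the scale of the shifts. Its peak on LFD fell at 8.24 ± 0.49 h in Equal, 13.4 ± 0.47 h in Long and 5.01 ± 0.47 h in Short light, and on HFD at 8.63 ± 0.43 h, 12.3 ± 0.51 h and 4.13 ± 0.50 h. The Sds peaks lay within 1 SE of their own of the Dbp peaks in all 6 arms. Dbp is 1 of 12 clock output factors and was named after its values were seen, so this closeness is a selected match. In LFD Equal light Nr1d2 also peaked near Sds, at 7.97 h, but Tef peaked at 10.4 h and Cry1 at 17.7 h. A link between Sds and Dbp was not tested. The amplitude of Dbp, 3.08 to 3.71, was above the 0.52 to 1.0 of Sds.

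**Figure D4:**
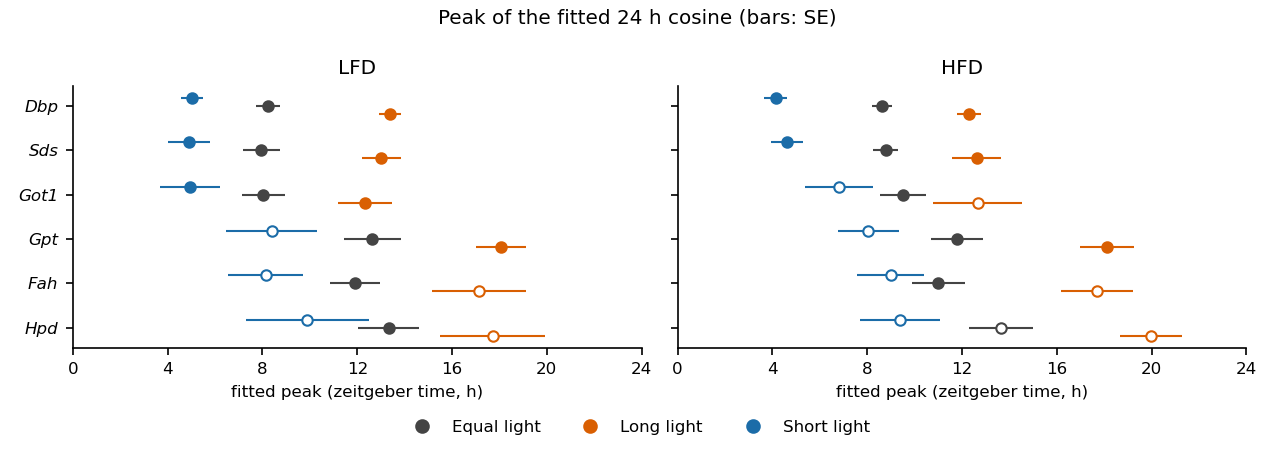
Peak time of the fitted 24 h cosine (zeitgeber time in h, horizontal axis) with its SE for Dbp and 5 of the enzymes, LFD left and HFD right; filled points passed the rhythm test in that arm and open points did not. For Sds the order is Short, Equal, Long light on both diets, from 4.90 to 13 h on LFD.

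Libraries of the same group also differed together in these genes. Pairs of other genes were not tested, so no share over all genes can be set beside the counts that follow. With group means removed, 17 of 36 pairs of the 9 genes were correlated over all libraries by Pearson's r, and these 17 were positive (two-sided permutation within groups, 100000 resamples, Benjamini-Hochberg over 72 relations; the smallest p these can give is 1e-05). Spearman's rho differed in call for 2 pairs: Hpd and Sds did not pass (r = 0.34, adjusted p = 0.0412; rho = 0.18, adjusted p = 0.264), and Tdo2 and Got1 passed with a negative sign (rho = -0.29, adjusted p = 0.0291; r = -0.27, adjusted p = 0.0621). The closest were Fah and Gpt (Pearson r = 0.82, Spearman rho = 0.74), Hpd and Gpt (0.82 and 0.74) and Hpd and Fah (0.77 and 0.66), each with p = 1e-05 and adjusted p = 0.000103. Without the 2 libraries farthest from the median these r were 0.79, 0.79 and 0.73. Further calls were Sds and Got1 (r = 0.61, rho = 0.62), Hgd and Got1 (0.59 and 0.56) and Tat and Sds (0.47 and 0.48), and Tdo2 went with Kmo (0.53 and 0.54). The 36 relations of the genes with the muscle, pancreas, blood and Kupffer marker levels gave 0 calls. Over the 36 group means, the genes most like Sds were Slc38a3, a glutamine transporter (r = 0.91), and Abcg5 (0.90), a sterol transporter, of 9974 candidates. Got1 and Hgd were both most like Gls2, the liver glutaminase (0.86 and 0.86), Fah was most like Acy1 and Prodh (0.90 and 0.89), and Hpd like Dcxr and Sardh (0.89 and 0.88). Gpt was most like Mfn2 and Smarcd2 (0.90 and 0.90), Kmo like Cmbl and Immt (0.88 and 0.88), Tdo2 like Ube2e2 and Arl6ip1 (0.83 and 0.81), and Tat like Tmem14c and Ggt6 (0.80 and 0.76).

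The other enzymes of amino acid breakdown were called higher on HFD more often than lower. In 8 lists with 77 tested genes outside the 9, 42 were called higher on HFD, 5 lower and 30 were not called, with a median of 0.11; the share called was 61%, beside 25.5% of all genes. In branched-chain breakdown 13 of 19 genes rose and 0 fell, with Aldh6a1 at 0.25. Among aminotransferases and glutamate enzymes other than Got1 and Gpt, 6 of 9 rose, led by Oat, ornithine aminotransferase, at 0.60 (SE 0.066, 1.51-fold). In serine, glycine and threonine breakdown without Sds 6 of 11 rose, such as Agxt2 (0.37) and Sardh (0.32), and 2 fell, such as Gcat (-0.33). Outside the named tyrosine genes, Gstz1, which isomerises maleylacetoacetate before Fah, rose by 0.19 and the other 3 were not called. Of the other tryptophan genes 3 of 9 rose and 2 fell, with Ido2 at 0.16 and Aadat at 0.16. Afmid, which acts between Tdo2 and Kmo, differed by 0.011 and was not called. Histidine and lysine breakdown had 5 of 8 higher and 0 lower (Gcdh 0.26), and methionine and cysteine 5 of 9 higher and 0 lower (Suox 0.41, Bhmt 0.36). In the urea cycle 3 of 8 rose and Cps1 fell by 0.16, while Otc rose by 0.19. The lists were chosen with earlier results of these data known, so that they are not independent evidence.

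**Figure D5:**
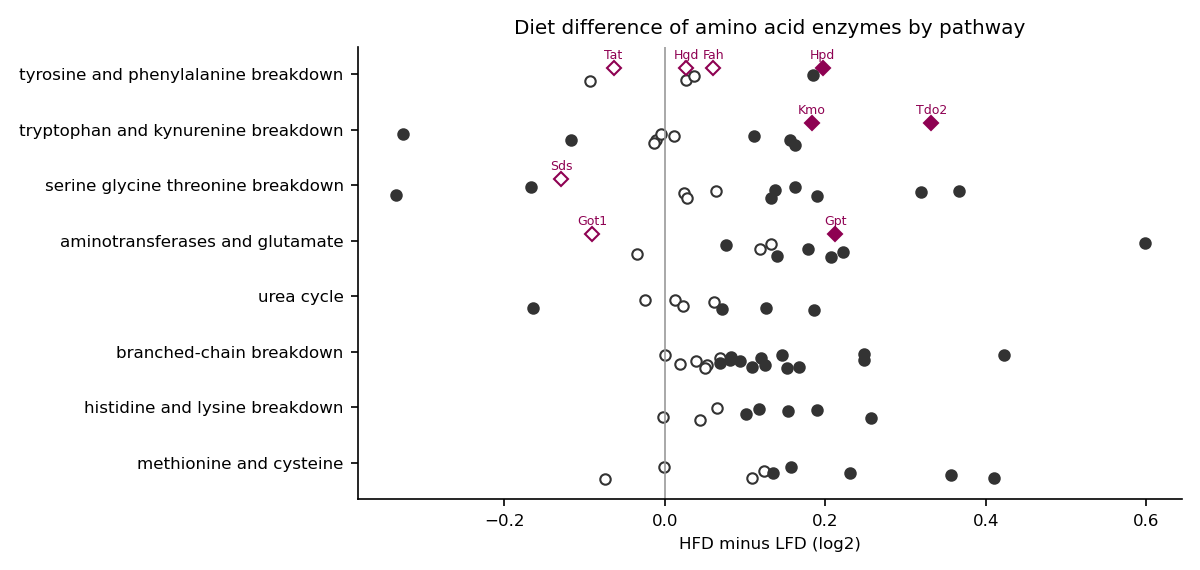
Difference in log2 CPM between HFD and LFD (horizontal axis) of each tested gene in 8 lists of amino acid enzymes (rows); filled symbols passed the test, open ones did not, and purple diamonds are the 9 genes. Most filled symbols lie to the right of 0, with Oat the farthest at 0.60.

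Some genes of groups known to bear on these enzymes were called between diets, and their part in the result was not tested. The counts below stand beside 25.5% of all genes called and 12.9% called higher in HFD. Of 9 glucocorticoid targets, 2 rose (Mt1 0.75) and 2 fell (Zbtb16 -0.37, Fkbp5 -0.30). Among 8 fasting and glucagon targets 2 rose (Cpt1a 0.24, Creb3l3 0.23) and Ppargc1a fell by 0.33. Of 10 regulators Ppara rose by 0.26, and Atf4 (-0.17) and Onecut1 (-0.74) fell. Of 9 amino acid transporters 3 rose (Slc1a2 0.35) and 1 fell (Slc43a1 -0.24), and the 12 clock output factors gave 0 calls by limma. Of the markers of pericentral hepatocytes, which lie near the central vein, 8 of 11 rose (Lgr5 0.48, Lect2 0.43), and of those of periportal hepatocytes 1 of 11 did (Serpina1c 0.14). Kupffer cell markers were called higher in 5 of 8 cases (Cd5l 0.30), with a summed level of 273.7 to 749.7 CPM on HFD and 239.9 to 695.9 CPM on LFD, and pancreas markers were called lower on HFD in 11 of 13. Of blood markers 1 of 4 rose and 2 fell, and of muscle and adipocyte markers 0 of 12 and 0 of 3 were called.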

How the data were processed

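TruSeq Stranded mRNA libraries of liver RNA were sequenced from both ends, per the labels' protocols. The tools named are STAR, featureCounts and Subread 1.6.2, and the builds mm10 and GRCm38, per the submitters' processing notes; their options and the normalization are not stated. The values deposited by the authors are log2 CPM, in which every library had the same lowest value, -3.6124. With that floor read as a prior of 2.0 reads, 99.43% to 99.73% of a library's values came out as whole reads within 0.05 read, which gave the depth. The prior slightly understates differences of low genes. Columns were matched to samples by the names in the labels. No library was counted as a duplicate: chi-square per degree of freedom was at least 14.33 in all 153 pairs within groups.

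Genes that reached 1 CPM in 3 or more libraries went into limma 3.58.1 in R 4.3.3, with a variance trend and all groups in 1 fit; Benjamini-Hochberg adjustment ran over all 14397. A rhythm was tested by F on the 24 h cosine and sine terms of an arm. Count models were planned only for counts and were not used, since the table holds log2 values; limma-voom on the recovered reads was an alternative. Correlations used Python 3.11.15. The fits were tested on simulated data. Positions are from GENCODE mouse release 21 on GRCm38, where 99.88% of identifiers were found. Named are all 9 members, up to 4 genes per list with the smallest p between diets, and the 2 genes most like each member. Dbp, Nr1d2, Afmid and the genes that overlap Sds were added after their values were seen. The members and lists were chosen with earlier results of these data known. The alternatives without 1 single library were chosen after seeing the data.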

Additional observations from a re-analysis of the deposited data

Results flagged for a closer look

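In groups of 4 libraries, 17 of 135 combinations of gene and group held a library whose gap to its nearest neighbour was above Dixon's critical value, where chance gives about 1 in 20. Low values were Tat at 9.69 log2 CPM in LFD Long light ZT16 and 10.76 in LFD Long light ZT4, Hpd at 10.17 in LFD Long light ZT4, Tdo2 at 9.89 in HFD Long light ZT8 and 9.73 in LFD Equal light ZT12, and Kmo at 8.25 in LFD Short light ZT12. Sds was low at 6.29 in HFD Long light ZT0 and 6.41 in HFD Short light ZT0, Got1 at 6.98 in HFD Long light ZT8, and Gpt at 7.16 in LFD Equal light ZT12. The library numbered here as HFD Equal light ZT20 replicate 1 was low in Fah (8.62) and Gpt (6.49), where its group was otherwise at 9.27 to 9.36 and 7.94 to 8.20. High values were Tat at 11.76 in LFD Short light ZT12 and 11.46 in LFD Short light ZT16, Hpd at 11.28 in HFD Short light ZT0, Hgd at 9.71 in LFD Long light ZT16 and Gpt at 8.41 in HFD Short light ZT4.

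A test of the difference in rhythm between photoperiods passed for 13 combinations, as the amplitude of the difference on the log2 scale. Between Long and Short light these were Tat 0.51, Hpd 0.31, Fah 0.20, Tdo2 0.25, Sds 1.09, Got1 0.51 and Gpt 0.52. Between Long and Equal light they were Hpd 0.28, Fah 0.19, Sds 0.80, Got1 0.41 and Gpt 0.43, and between Short and Equal light Sds 0.72.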

How the results depend on the processing

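Of 900 alternatives to results for single genes, 799 kept their call, 97 lost it, 4 gained one (Fah between diets) and 0 changed sign; the cause of these changes was not tested. No paired analysis was possible because the labels hold no replicate numbers; those used here merely tell libraries apart. Counts of the 9 genes called that moved by over 1.5 times follow. For HFD against LFD in Equal light, 2 became 4 with array weights and 4 without the HFD Equal light ZT20 library. In Long light, 2 became 1 with equal library medians, 0 without the 17 libraries rich in other tissue and 1 with those levels as covariates. In Short light, 1 became 0 with equal medians, 0 without rich libraries, 0 with the covariates, and 2 without the 2 libraries that stand apart, 2 with array weights and 2 with the library number. Without rich libraries, ZT4 went from 2 to 1, ZT8 from 0 to 1 and ZT16 from 1 to 0; array weights gave 2 at ZT8 and 2 at ZT16, and leaving out the 2 libraries that stand apart gave 2 at ZT16. For rhythm in LFD Equal light, 6 became 3 without the 2 libraries and 3 without the ZT0 library alone. LFD Long light went from 3 to 1 without rich libraries and 1 with the 6 times as a factor, and LFD Short light from 3 to 6 with array weights. HFD Equal light went from 4 to 1 with 6 times and 2 without the ZT20 library, and HFD Long light from 2 to 7 with array weights and 0 with 6 times. HFD Short light went from 2 to 1 without rich libraries, 4 without the 2 libraries, 7 with array weights and 1 with 6 times. For a rhythm difference between Long and Equal light, 5 became 3 with 6 times. Between Short and Equal light, 1 became 2 with equal medians, 2 without the 2 libraries, 6 with array weights and 2 without the ZT20 library.

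Leaving out replicate 1, 2, 3 or 4 of every group gave 0 to 2 calls in Equal light, 0 to 1 in Long light, 0 to 1 in Short light, 0 to 2 at ZT4 and 0 to 1 at ZT16 for diet. For rhythm it gave 1 to 7 calls in LFD Equal light, 1 to 4 in LFD Long, 1 to 1 in LFD Short, 1 to 4 in HFD Equal, 0 to 3 in HFD Long and 1 to 2 in HFD Short light. For rhythm differences it gave 2 to 4 between Long and Equal light and 1 to 2 between Short and Equal light.

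The calls over all 14397 genes moved under the same settings as follows. With array weights, all genes called between diets went from 986 to 2614 in Equal light, from 990 to 2297 in Short light, from 26 to 886 at ZT8 and from 360 to 1220 at ZT16. Rhythmic genes went from 3906 to 6109 in LFD Short, from 3137 to 5983 in HFD Long and from 2034 to 4018 in HFD Short light, and rhythm differences between Short and Equal light from 2349 to 4491. Without rich libraries, calls between diets went from 990 to 492 in Short light and from 340 to 78 at ZT4 and were also fewer in Long light, and rhythmic genes from 3395 to 1450 in LFD Long light. With 6 times as a factor, rhythmic genes numbered 1641 in HFD Equal (2372 with the cosine) and 1696 in HFD Long light. Without the HFD Equal light ZT20 library 1227 genes were called between diets in Equal light, and without the LFD Equal light ZT0 library 2263 were rhythmic in LFD Equal light (3012 with it). Leaving out replicates gave 194 to 763 genes between diets in Equal light and 1051 to 3175 rhythmic genes in LFD Equal, 1782 to 2991 in LFD Long, 1611 to 3798 in LFD Short, 940 to 2246 in HFD Equal, 1114 to 2532 in HFD Long and 835 to 1628 in HFD Short light.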
